A study of Mus musculus with 9 samples.

Results

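The genes described here encode neurotrophic factors and the receptors that neurons use to sense them. They are Bdnf, Ntrk2, Ngfr, Cntf, Cntfr, Lifr, Gfra1, Igf1, Igf1r and Fgf1 and were chosen by name, not by a level or a difference. The processed table listed 9 of these 10 genes among its 15228 genes, and Gfra1 was not analysed here. RNA was sequenced from cells sorted as retinal ganglion cells (RGCs) of wild-type mice in 3 groups of 3 libraries. Ctrl retinas were uninjured, ONC retinas were taken 3 d after an optic nerve crush with PBS as the vehicle, and TPEN retinas were taken 3 d after the same crush with TPEN, a membrane-permeable chelator of zinc. The cells were selected by flow cytometry for the surface antigen Thy1 and the absence of other antigens, and the sources do not say whether each library stands for its own mice or how many retinas were pooled. The p-values therefore measure the spread between libraries, which may be technical in part.

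Neurotrophins are secreted proteins that bind kinase receptors of the Trk family and a second receptor, encoded by Ngfr, that has no kinase and can signal survival or death depending on its partners. CNTF binds its receptor CNTFR, which has no signalling domain of its own and needs the chains LIFR and IL6ST to activate the transcription factor STAT3. IGF1 and FGF1 act on receptor tyrosine kinases, and CNTF, BDNF and IGF1 are all known to promote survival or axon growth of RGCs after injury to the optic nerve.

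The library totals worked out from the table were 19946993 to 23109754 reads. Levels are given in RPKM, read numbers scaled by exon length and library size, as the authors deposited them, so that genes of different length can be compared. The limma fit used log2(RPKM + 0.1) of all 13566 genes whose mean reached 0.5 RPKM. A gene was called a DEG where its Benjamini-Hochberg adjusted p was under 0.05 and it differed by 1.5-fold or more. The sorted cells held much RNA of other cells, although the paper stained them for the RGC protein RBPMS to type them. The summed level of 8 rod marker genes was 16764 to 19877 RPKM, against 290 to 395 RPKM for the 10 listed RGC markers. By mean RPKM, the RGC markers Nefl, Nefm, Nefh and Sncg ranked 153, 847, 1811 and 2289 of 15228. Thy1, Tubb3 and Isl1 ranked 6283, 7783 and 10436, and Rbpms, Slc17a6 and Pou4f1 ranked 13805, 14020 and 14252. The labelled cell type is therefore written here as cells sorted as RGCs. In such bulk samples a smaller share of cells of a type and less RNA per cell cannot be told apart.

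Ngfr and Igf1r were the 2 members with a limma adjusted p under 0.05 in any comparison. For Igf1r this was lost in most fits that left out 1 library. The promoters of both are printed so that the sequence can be read beside the values. They are taken from RefSeq (GRCm38.p6), run 5′ to 3′ on the strand of the gene, and are 300 bases long, most of them before the annotated start. Capitals mark every GC box (GGGCGG, the core bound by Sp1) and every metal response element core (TGCACNC or TGCGCNC, the core bound by the zinc-sensing factor MTF1), on either strand. No match of one motif overlapped a match of the other.
Ngfr promoter, chr11:95587649-95587948, minus strand: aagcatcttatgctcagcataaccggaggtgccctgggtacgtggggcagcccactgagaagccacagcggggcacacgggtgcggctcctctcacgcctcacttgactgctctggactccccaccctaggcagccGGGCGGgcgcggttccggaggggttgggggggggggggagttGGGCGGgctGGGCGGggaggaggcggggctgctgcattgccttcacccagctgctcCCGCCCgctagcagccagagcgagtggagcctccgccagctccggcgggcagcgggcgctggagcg
Igf1r promoter, chr7:67952007-67952306, plus strand: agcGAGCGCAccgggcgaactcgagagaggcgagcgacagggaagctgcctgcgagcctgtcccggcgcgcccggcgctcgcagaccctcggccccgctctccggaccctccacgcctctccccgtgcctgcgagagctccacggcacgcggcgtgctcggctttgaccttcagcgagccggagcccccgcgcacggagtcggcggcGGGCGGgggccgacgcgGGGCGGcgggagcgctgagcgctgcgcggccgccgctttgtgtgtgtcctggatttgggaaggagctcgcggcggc
The Ngfr window had 4 GC boxes, 23 CpG dinucleotides and no metal response element core, with 71.7% G and C. The Igf1r window had 2 GC boxes, 48 CpG dinucleotides and 1 metal response element core, with 76.0% G and C, and it lies upstream of the start that the table gives for the gene. A GC box was found in 35.7% and a metal response element core in 25.7% of the 32851 mouse promoter windows of the same length, whose median was 7 CpG dinucleotides and 52.7% G and C. Neither window held TTCNNNGAA, the core of a STAT site, which 8.3% of all windows held, nor TATAAA, which 13.6% held. These matches describe the letters of the windows and are not binding sites.

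The receptor genes Igf1r, Lifr, Ngfr and Cntfr had the highest RPKM among the members, while the factors and the receptor Ntrk2 were low. The place of Cntf is uncertain, as it shares most of its exon bases with Zfp91. By mean RPKM over the 9 libraries, Igf1r ranked 4703, Lifr 4869, Ngfr 5433 and Cntfr 8148 of 15228 genes, while Cntf ranked 12528, Fgf1 12662, Igf1 14638, Ntrk2 14865 and Bdnf 15029. In Ctrl, Igf1r and Lifr overlapped between libraries, Ngfr and then Cntfr lay apart below them, Fgf1 and Cntf overlapped each other, and Igf1, Ntrk2 and Bdnf formed the lowest set, in which each overlapped the next. In ONC, Igf1r, Lifr, Ngfr and Cntfr all lay apart from the next in this order. In TPEN, Igf1r overlapped Lifr and Lifr overlapped Ngfr, and Igf1 lay above Ntrk2 and Bdnf. Of the 9 listed genes, 6 had a mean of at least 0.5 RPKM and were tested with limma (Ngfr, Igf1r, Lifr, Cntfr, Cntf and Fgf1), and 3 did not (Bdnf, Ntrk2 and Igf1).

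**Figure D1:**
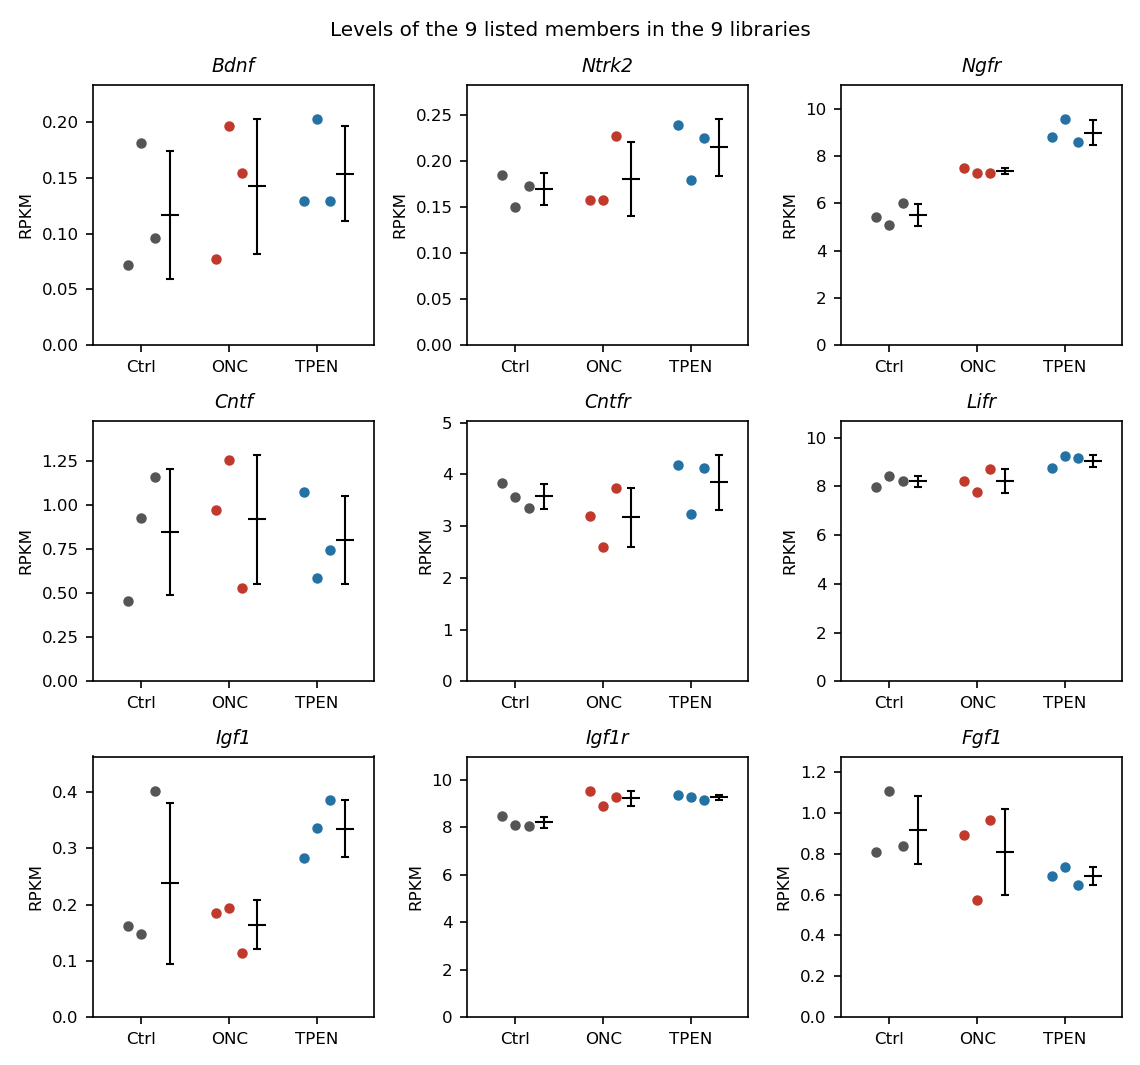
Level of each of the 9 listed genes in RPKM (vertical axis, starting at 0, with its own scale in each panel) in the 3 Ctrl, 3 ONC and 3 TPEN libraries. Points are libraries and bars are the mean ± SD of 3 libraries. Ngfr is higher in ONC than in Ctrl and higher again in TPEN, with no overlap between groups, whereas Bdnf, Ntrk2 and Cntf overlap between all groups.

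Ngfr, the neurotrophin receptor without a kinase domain, was the one DEG among the members. The gene lies on chromosome 11 (95568818 to 95587735, GRCm38, minus strand), and no listed gene shares its exons. Ctrl replicates 1, 2 and 3 had 5.42, 5.10 and 6.01 RPKM, the ONC replicates 7.50, 7.28 and 7.28 RPKM and the TPEN replicates 8.80, 9.59 and 8.58 RPKM, from 406 to 734 reads per library. Every ONC library was above every Ctrl library, and every TPEN library was above every ONC library. The group means were 5.51 ± 0.464, 7.35 ± 0.128 and 8.99 ± 0.528 RPKM for Ctrl, ONC and TPEN (SD, n = 3 libraries). On the log2(RPKM + 0.1) scale Ngfr was 0.41 higher in ONC than in Ctrl (limma, SE 0.070, adjusted p = 0.00271), a 1.33-fold difference that stayed under 1.5-fold. It was 0.70 higher in TPEN than in Ctrl (limma, SE 0.070, adjusted p = 1.5e-04), a fold change of 1.62 with a 95% confidence interval of 1.45 to 1.81. The step from ONC to TPEN was 0.29 on the log2 scale (limma, SE 0.070, adjusted p = 0.0387), or 1.22-fold. That step had an adjusted p of 0.0217 to 0.120 when single libraries were left out, and it was lost without Ctrl replicate 1, any ONC library or any TPEN library.

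Marker lists of other cells are given beside Ngfr. Müller glia, which are known to hold this receptor, had a summed marker level (10 of 10 genes) of 570 to 589 RPKM in Ctrl, 640 to 652 in ONC and 507 to 519 in TPEN. Its genes went both ways in ONC/Ctrl, with 3 higher and 3 lower by the limma adjusted p and a median log2 fold change of 0.055. Listed astrocyte markers (3 of 5) summed to 5.54 to 6.21 RPKM in Ctrl, 27.2 to 28.3 in ONC and 17.3 to 20.0 in TPEN. Most of that difference was Gfap, with group means of 2.79, 22.2 and 14.4 RPKM. The others were Aldh1l1, with 2.04, 4.22 and 3.24 RPKM, and S100b, with 1.09, 1.28 and 1.10 RPKM. Microglia and macrophage markers (13 of 14) summed to 9.36 to 9.74 RPKM in Ctrl, 56.9 to 58.7 in ONC and 32.8 to 36.8 in TPEN. The summed levels of these 3 lists were lower in every TPEN library than in any ONC library. Within the Müller glia list, however, 1 gene was higher and 4 were lower in TPEN/ONC by the limma adjusted p. Its Apoe had group means of 268 RPKM in ONC and 178 RPKM in TPEN, whereas Aqp4 had 7.66 and 9.44 RPKM. RGC markers (10 of 12) lay between 364 and 374 RPKM in Ctrl, 373 and 395 in ONC and 290 and 304 in TPEN. Most of this sum was Nefl, with group means of 258, 264 and 198 RPKM, and the list went both ways. Of its 7 tested genes, 2 were higher and 1 lower in ONC/Ctrl by the limma adjusted p. In TPEN/ONC, 1 was higher and 3 were lower. The untested Pou4f1 had 0.571 RPKM in Ctrl and 0.183 RPKM in ONC, and Thy1 had 5.35 RPKM in ONC and 7.12 RPKM in TPEN. Cone markers (6 of 6) were higher in TPEN, with 128 to 135 RPKM in Ctrl, 111 to 119 in ONC and 199 to 202 in TPEN, and the part of any of these cells in the level of Ngfr was not tested.

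**Figure D2:**
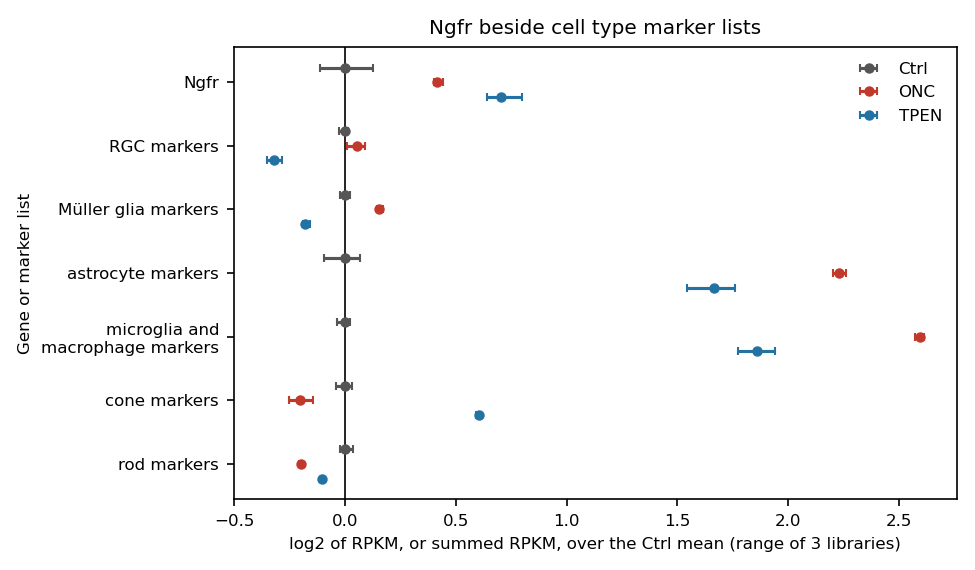
Level of Ngfr and summed levels of cell type marker lists in Ctrl (grey), ONC (red) and TPEN (blue) as log2 over the Ctrl mean (horizontal axis). Points are group means and bars span the lowest to the highest of 3 libraries. Ngfr lies above Ctrl in both groups and highest in TPEN, whereas the astrocyte list and the list of microglia and macrophages lie highest in ONC.

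By the smallest root mean square difference of centred log2(RPKM + 0.1) values over the 9 libraries, compared over the 12143 genes that reached a mean of 1 RPKM, the genes most like Ngfr were Bst1 (0.060), Ptprn (0.066) and Pcdhb17 (0.068). Bst1, which encodes a surface enzyme that cleaves NAD, had mean levels of 3.55, 4.61 and 5.40 RPKM in Ctrl, ONC and TPEN. Ptprn, which encodes a membrane protein of secretory granules, had 6.23, 8.49 and 9.67 RPKM, and Pcdhb17, a clustered protocadherin, had 1.12, 1.49 and 1.78 RPKM. These genes were picked for their likeness to Ngfr, so their values are a description.

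Bdnf and its receptor Ntrk2 (TrkB) were close to the lower end of the table, and no difference between groups was detectable at this depth. Bdnf had 10 to 28 reads per library and 0.116 ± 0.0573, 0.142 ± 0.0604 and 0.154 ± 0.0426 RPKM on average in the Ctrl, ONC and TPEN libraries (SD, n = 3). Its values were 0.0718, 0.181 and 0.0961 RPKM in the Ctrl libraries, 0.0770, 0.196 and 0.154 RPKM in ONC and 0.129, 0.203 and 0.129 RPKM in TPEN. The highest Ctrl library was above 2 of the 3 TPEN libraries. Ntrk2 had 48 to 72 reads per library and 0.169 ± 0.0172, 0.181 ± 0.0401 and 0.215 ± 0.0313 RPKM on average in the Ctrl, ONC and TPEN libraries (SD, n = 3). Its values were 0.184, 0.150 and 0.173 RPKM in Ctrl, 0.158, 0.158 and 0.227 RPKM in ONC and 0.239, 0.179 and 0.225 RPKM in TPEN. An exact permutation test of the spread between the 3 groups, over the 280 ways to place 9 libraries in 3 groups of 3 and one-sided for a larger spread, gave p = 0.675 for Bdnf and p = 0.279 for Ntrk2, where the smallest p it can give is 0.00357. Within a library, Ngfr exceeded Ntrk2 by 29.5 to 34.7 times in Ctrl, 32.1 to 47.6 times in ONC and 36.8 to 53.5 times in TPEN, with RPKM of both genes.

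Lifr and Cntfr, the receptor chains for CNTF, did not pass the adjusted threshold in any comparison. Their RPKM lay above that of Cntf, whose own level is uncertain because it shares most of its exon bases with Zfp91. Lifr had 7.98, 8.41 and 8.23 RPKM in the Ctrl libraries, 8.22, 7.76 and 8.73 RPKM in the ONC libraries and 8.77, 9.25 and 9.15 RPKM in the TPEN libraries, from 1707 to 2122 reads. Every TPEN library was above every ONC and Ctrl library, although the highest ONC library (8.73) lay close to the lowest TPEN library (8.77). The log2 fold change in TPEN/ONC was 0.14 (limma, SE 0.056, adjusted p = 0.183), and with read numbers in place of RPKM, using voom with TMM scaling, it was 0.15 with an adjusted p of 0.0356. Cntfr, which anchors CNTF at the cell surface, had 3.83, 3.56 and 3.35 RPKM in the Ctrl libraries, 3.19, 2.60 and 3.74 RPKM in the ONC libraries and 4.19, 3.24 and 4.13 RPKM in the TPEN libraries. The 3 groups overlapped, and its log2 fold change was -0.18 in ONC/Ctrl (limma adjusted p = 0.426) and 0.28 in TPEN/ONC (limma adjusted p = 0.293), with a 95% confidence interval of the fold change in TPEN/ONC of 0.973 to 1.51. Lifr was 2.08 to 2.99 times the level of Cntfr in every library.

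Cntf, the ligand, had 0.457, 0.928 and 1.16 RPKM in the Ctrl libraries, 0.973, 1.26 and 0.528 RPKM in the ONC libraries and 1.07, 0.587 and 0.748 RPKM in the TPEN libraries. These values rest on 11 to 31 reads, and the groups overlapped in every comparison. The log2 fold change was 0.11 in ONC/Ctrl (limma, SE 0.36, adjusted p = 0.867) and -0.14 in TPEN/ONC (limma, SE 0.36, adjusted p = 0.871). The gene shares 847 of its 1073 exon bases with Zfp91 on the same strand. Zfp91 had 24.0 to 26.6 RPKM in the same libraries, so the reads given to Cntf are uncertain. How reads on shared bases were counted is not given. If they were left out, the RPKM of Cntf, divided by all 1073 bases, would be too low beside that of Cntfr and Lifr.

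Il6st, the signalling chain that these receptors share, and Stat3 and Socs3 were higher after the crush, while other signalling genes of the family did not pass as DEGs. The wider list of 111 genes of the same families and their signalling partners held 18 genes of the CNTF and LIF family, of which 13 were listed and 10 tested. In ONC/Ctrl, 4 of these 10 were DEGs with higher levels (Il6st, Osmr, Stat3 and Socs3), where 4.58% of all tested genes were, and 1 had a lower level (Ctf1), where 0.752% were. Osmr reached the limit of 0.5 RPKM only through its levels in ONC and TPEN. Its place among the 10 therefore depended on its being higher there. The kinases Jak1, Jak2 and Tyk2, which couple these receptors to STAT3, had limma adjusted p of 0.337, 0.235 and 0.406. Pias3, an inhibitor of STAT3, was lower by the adjusted p alone, with a log2 fold change of -0.23 (limma adjusted p = 0.0162). Il6st was 5.78 ± 0.121, 13.5 ± 0.490 and 13.1 ± 0.194 RPKM on average in the Ctrl, ONC and TPEN libraries (SD, n = 3). Its log2 fold change was 1.21 in ONC/Ctrl (limma, SE 0.045, adjusted p = 9.6e-08) and -0.043 in TPEN/ONC (limma adjusted p = 0.640). Osmr, the oncostatin M receptor chain, which pairs with IL6ST, was 0.145 ± 0.0122, 0.654 ± 0.0760 and 0.818 ± 0.0294 RPKM on average in the Ctrl, ONC and TPEN libraries.

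Stat3 encodes the transcription factor below these receptors, and it was 3.66 ± 0.138, 14.6 ± 0.147 and 13.9 ± 0.223 RPKM on average in the Ctrl, ONC and TPEN libraries, with a log2 fold change of 1.97 in ONC/Ctrl. Socs3, an inhibitor of the receptors that STAT3 induces, was 1.68 ± 0.428, 6.49 ± 0.187 and 4.39 ± 0.221 RPKM on average in the Ctrl, ONC and TPEN libraries. Its log2 fold change was 1.92 in ONC/Ctrl and -0.55 in TPEN/ONC, the second with a limma adjusted p of 0.0628. Ctf1, cardiotrophin 1, a ligand of LIFR, was 1.36 ± 0.443 RPKM in Ctrl and 0.668 ± 0.0634 RPKM in ONC, with a log2 fold change of -0.88 (limma adjusted p = 0.0178). Leaving out replicate 1 or 2 of Ctrl, or replicate 1 of ONC, ended that call, with an adjusted p of 0.00199 to 0.0626 over the 9 fits that left out 1 library (limma). Ctf1 was 1.09 ± 0.137 RPKM in TPEN, with a log2 fold change of 0.63 in TPEN/ONC (limma adjusted p = 0.119). In TPEN/ONC 0 of the 10 were called, where 2.03% of all tested genes were, a share at which a count of 0 among so few genes says nothing of the family. The summed markers of astrocytes (5.54 to 6.21 RPKM in Ctrl and 27.2 to 28.3 in ONC) and of microglia and macrophages (9.36 to 9.74 and 56.9 to 58.7 RPKM) were also higher after the crush. Gfap held most of the difference in the astrocyte sum. The part of these cells in the levels of Il6st, Osmr, Stat3 and Socs3 was not tested. Lif, another ligand of LIFR, and Il6ra, the receptor chain for interleukin 6, were under the limit for testing and are named because their values were seen. Without a limit on low values both were also called in ONC/Ctrl. Il6ra had 2 to 11 reads in the Ctrl libraries, 26 to 64 in ONC and 8 to 34 in TPEN. Lif had 3, 4 and 4 reads in the Ctrl libraries, 12, 18 and 20 reads in ONC and 20, 28 and 32 reads in TPEN, or 0.0308 to 0.0458 RPKM, 0.120 to 0.200 RPKM and 0.230 to 0.369 RPKM.

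**Figure D3:**
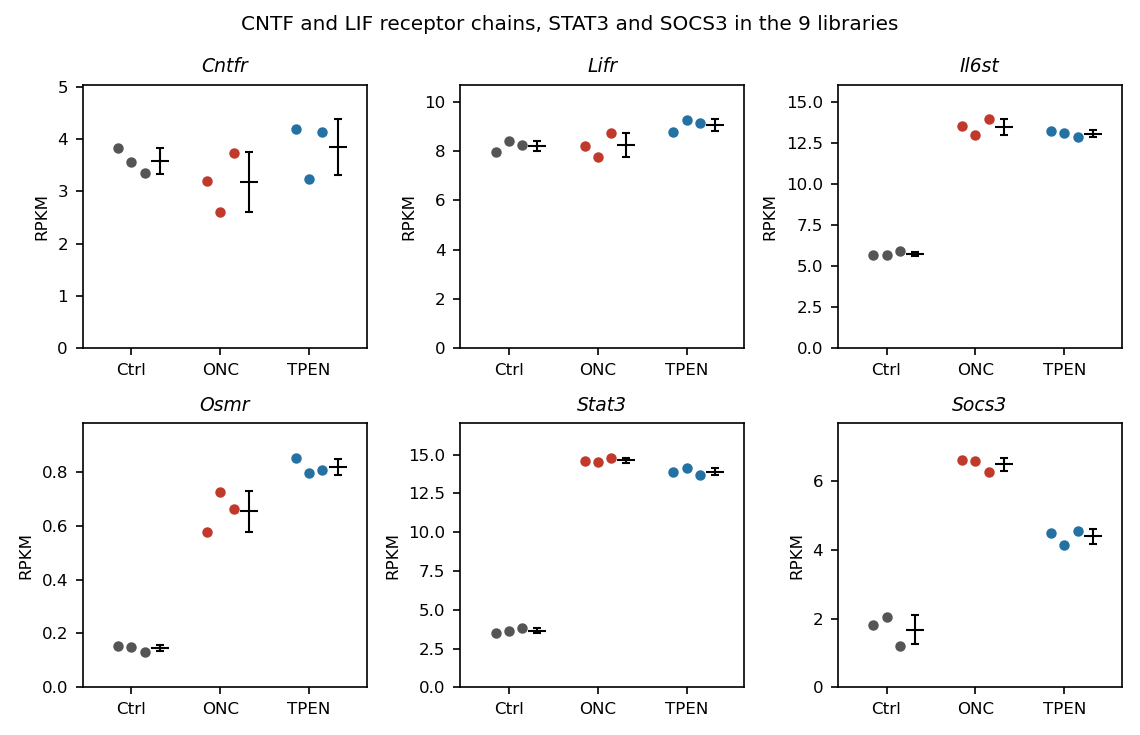
Levels in RPKM (vertical axis, starting at 0, with its own scale in each panel) of the receptor chains Cntfr, Lifr, Il6st and Osmr, the transcription factor Stat3 and its inhibitor Socs3 in the 9 libraries. Points are libraries and bars are the mean ± SD of 3 libraries. Il6st, Osmr, Stat3 and Socs3 are higher in every ONC and TPEN library than in any Ctrl library, while Cntfr overlaps between the groups.

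Igf1r, the receptor of IGF1, was the other member whose adjusted p was under 0.05 in ONC/Ctrl, although the difference was small. The gene lies on chromosome 7 (67952827 to 68233668, GRCm38, plus strand). It had 8.49, 8.12 and 8.06 RPKM in the Ctrl libraries, 9.53, 8.89 and 9.28 RPKM in the ONC libraries and 9.36, 9.27 and 9.16 RPKM in the TPEN libraries, from 2718 to 3679 reads. Every ONC and TPEN library was above every Ctrl library, and the ONC and TPEN libraries overlapped. The fold change in ONC/Ctrl was 1.12 with a 95% confidence interval of 1.04 to 1.21 (log2 fold change 0.16, limma, SE 0.047, adjusted p = 0.0368). Between TPEN and Ctrl it was 0.17 on the log2 scale (limma, SE 0.047, adjusted p = 0.0414). In TPEN/ONC the log2 fold change was 0.0053, with an interval of -0.100 to 0.111. The call in ONC/Ctrl had an adjusted p of 0.0418 to 0.126 when single libraries were left out, and it was lost in 7 of these 9 fits. In TPEN/Ctrl it was lost in 8 of 9 fits, with adjusted p of 0.0495 to 0.109, and it was also lost after quantile normalization in both comparisons, at 0.108 and 0.0925.

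Igf1, the ligand, was at a level too low for the limma test. It had 0.162, 0.149 and 0.402 RPKM in the Ctrl libraries, 0.184, 0.193 and 0.114 RPKM in the ONC libraries and 0.283, 0.336 and 0.385 RPKM in the TPEN libraries, from 26 to 80 reads. All 3 TPEN libraries were above all 3 ONC libraries, and Ctrl replicate 3 was above every TPEN library. The exact permutation test over the 3 groups gave p = 0.157, and p = 0.0393 without Ctrl replicate 3, the library that set the spread of Ctrl. Igf1 is known to be made by microglia after injury, and the summed markers of microglia and macrophages were 56.9 to 58.7 RPKM in ONC, where Igf1 was 0.164 ± 0.0433 RPKM, and 32.8 to 36.8 RPKM in TPEN, where it was 0.335 ± 0.0509 RPKM. The part of these cells in the level of Igf1 was not tested. Insr, the related receptor of insulin, had 5.10, 5.29 and 5.18 RPKM as group means in Ctrl, ONC and TPEN, with limma adjusted p of 0.571 to 0.851.

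Fgf1, a growth factor without a signal peptide, was low in all groups. It had 0.806, 1.11 and 0.836 RPKM in the Ctrl libraries, 0.889, 0.571 and 0.965 RPKM in the ONC libraries and 0.689, 0.736 and 0.647 RPKM in the TPEN libraries, from 60 to 119 reads. All 3 TPEN libraries were below all 3 Ctrl libraries, and the ONC libraries overlapped both groups. Against Ctrl, TPEN differed by a log2 fold change of -0.35 (limma, SE 0.20, adjusted p = 0.288), and the 95% confidence interval of the fold change was 0.578 to 1.06. The related Fgf2 of the wider list, which likewise has no signal peptide in its main form, was far higher after the crush. It had 2.62 ± 0.178, 14.5 ± 0.0606 and 9.66 ± 0.330 RPKM on average in the Ctrl, ONC and TPEN libraries (SD, n = 3), with a log2 fold change of 2.43 in ONC/Ctrl and -0.58 in TPEN/ONC (limma adjusted p = 4.8e-04), the second under 1.5-fold. Exon bases of Fgf2 are shared with the listed genes Gm43439 and Nudt6, so its reads are uncertain. The receptor Fgfr1 was 0.419 ± 0.0159, 0.673 ± 0.137 and 0.625 ± 0.0514 RPKM on average in the Ctrl, ONC and TPEN libraries, with a log2 fold change of 0.56 in ONC/Ctrl (limma adjusted p = 0.0434), also under 1.5-fold. Its Ctrl mean lay under the limit of 0.5 RPKM, which Fgfr1 reached only through ONC and TPEN.

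**Figure D4:**
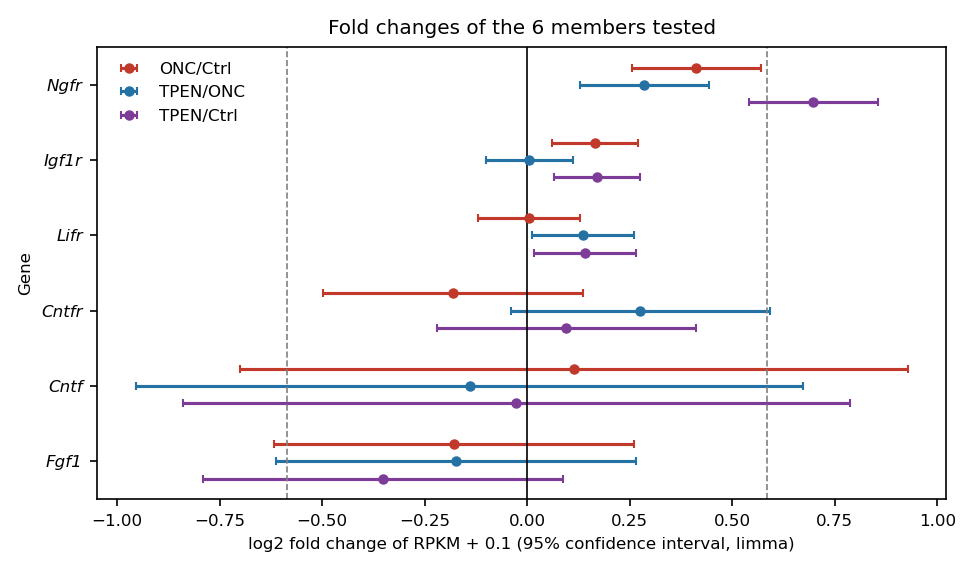
Log2 fold changes of RPKM + 0.1 (horizontal axis) for the 6 tested members in ONC/Ctrl, TPEN/ONC and TPEN/Ctrl, with 95% confidence intervals from limma. Dashed lines mark a fold change of 1.5 in either direction. The interval of Ngfr lies above 0 in all 3 comparisons, and those of Cntf and Fgf1 include 0 in all 3.

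Counted over the members, 0 of 6 were DEGs in ONC/Ctrl, where 5.34% of all tested genes were, 0 of 6 in TPEN/ONC, where 2.03% were, and 1 of 6 (Ngfr) in TPEN/Ctrl, where 3.91% were. With the adjusted p alone, 2 of 6 were called in ONC/Ctrl (18.7% of all genes), 1 of 6 in TPEN/ONC (7.39%) and 2 of 6 in TPEN/Ctrl (13.4%). At an unadjusted p under 0.05, 2, 2 and 3 of the 6 were called, against 31.6%, 22.0% and 27.2% of all genes. The members whose groups did not overlap and were higher were Ngfr and Igf1r in ONC/Ctrl (20.7% of all genes), Ngfr and Lifr in TPEN/ONC (12.5%), and Ngfr, Lifr and Igf1r in TPEN/Ctrl (18.1%). The one member that was lower without overlap was Fgf1 in TPEN/Ctrl (13.3% of all genes), with 0 of 6 in ONC/Ctrl (15.8%) and in TPEN/ONC (15.6%). The median log2 fold change of the 6 members was 0.059, 0.071 and 0.12 in these comparisons, against 0.017, -0.011 and 0.012 for all tested genes. The 3 comparisons share libraries, so these counts are not independent of each other.

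In the wider list, 58 of 111 genes were listed and 47 tested. In ONC/Ctrl, 6 of the 47 were higher DEGs (Il6st, Osmr, Stat3, Socs3, Fgf2 and Epo), where 4.58% of all genes were, and 1 was lower (Ctf1), where 0.752% were. In TPEN/ONC, 0 were higher and 1 was lower (Epo), against 0.818% and 1.21% of all genes. In TPEN/Ctrl, 5 were higher (Il6st, Osmr, Stat3, Socs3 and Fgf2), against 3.45%. Osmr was among the 47 only through its levels in ONC and TPEN, so it adds little to these counts. The neurotrophin family had 7 tested genes of the wider list and no DEG in any comparison, and the families of GDNF (5 tested) and of IGF and insulin (7 tested) had none either. Of all tested genes, 5.34% were DEGs in ONC/Ctrl, 2.03% in TPEN/ONC and 3.91% in TPEN/Ctrl. At such shares a count of 0 among so few genes says nothing of these families. Sort1, a sorting receptor that pairs with NGFR, had group means of 11.4, 11.7 and 11.6 RPKM, with limma adjusted p of 0.711 to 0.933, and Ntrk3 (TrkC) was below the limit for testing, at 0.272, 0.221 and 0.234 RPKM. Sort1 shares exon bases with the listed gene Gm12523. Epo, erythropoietin, was 1.80 ± 0.0528, 4.19 ± 1.19 and 2.48 ± 0.301 RPKM on average in the Ctrl, ONC and TPEN libraries, and its exon bases overlap those of Gnb2, so its reads are uncertain. Its call in TPEN/ONC was lost in 7 of the 9 fits that left out 1 library, all but those without Ctrl replicate 3 or ONC replicate 3, with a limma adjusted p of 0.0279 to 0.112.

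**Figure D5:**
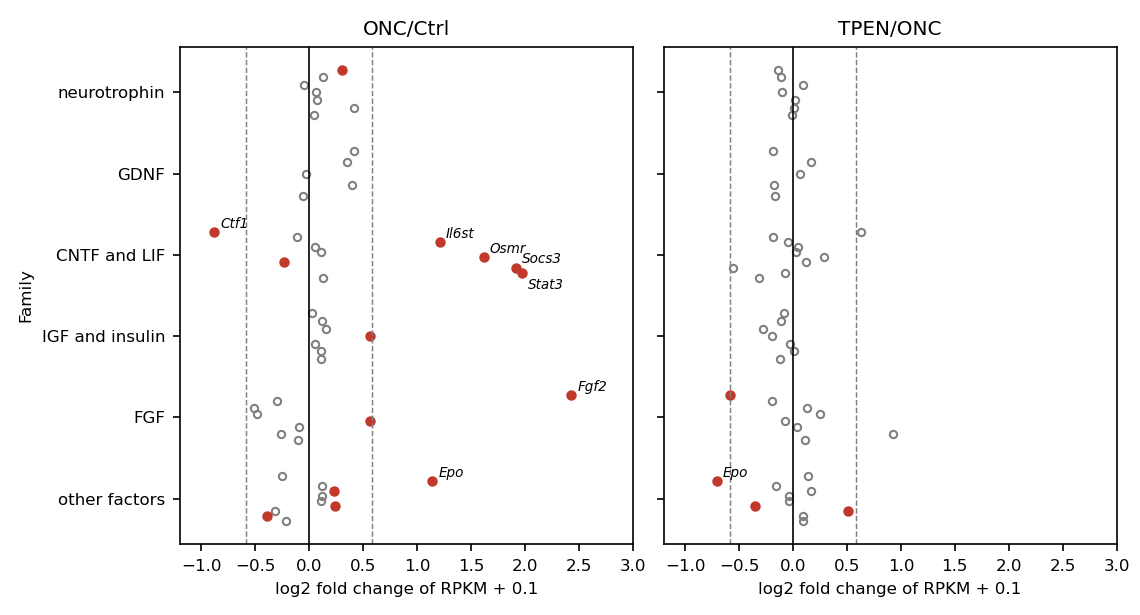
Log2 fold change of RPKM + 0.1 (horizontal axis) for the 47 tested genes of the wider list, by family (vertical axis), in ONC/Ctrl and TPEN/ONC. Filled red points have an adjusted p under 0.05, open points do not, and dashed lines mark a fold change of 1.5. Named points also pass the 1.5-fold limit, as 5.34% of all tested genes do in ONC/Ctrl. Of the 7 named in ONC/Ctrl, 5 belong to the family of CNTF and LIF, which holds 10 of the 47. Among these 5, Ctf1 is lower, and Osmr reached 0.5 RPKM only through ONC and TPEN.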

How the data were processed

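Cells sorted as RGCs were profiled by stranded mRNA sequencing in 9 libraries, 3 each of Ctrl, ONC and TPEN, grouped by the sample titles. Per the labels and the methods, the authors trimmed the reads (Trimmomatic 0.36) and mapped them with STAR to GRCm38 (mm10). The counting program, the annotation and the handling of molecular identifiers are not given in the sources used here. The authors deposited RPKM values, which are normalised for exon length and library size, for 15228 genes. The 9 columns of p-values, FDR values and log2 fold changes that the authors made with edgeR from pairs of groups, and deposited in the same table, were not used.

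RPKM times exon length gave whole multiples of 1 step per library within 0.01 reads, and read numbers and totals (19946993 to 23109754) were taken from these steps. Where no read was seen, the limit that a count of 0 allows was set at 3 reads (0.130 to 0.150 RPM), for counting error only. Read numbers of replicates were compared by chi-square, whose mean over genes was 2.30 to 5.20 and above what sampling of reads gives. Such an excess may be technical in part and does not show that the libraries stand for separate mice. All 9 libraries entered as separate samples.

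limma 3.58.1 (R 4.3.3) with a variance trend was fitted to log2(RPKM + 0.1) of 13566 genes in all 9 libraries, with Benjamini-Hochberg adjustment over all of them. The pseudocount makes fold changes of low genes smaller than the ratios of their means. Tested on simulated data for ONC/Ctrl on 13566 genes, the fit called 31 of 100 genes changed 1.5-fold and 85 of 100 changed 2-fold. The median estimate of the genes changed 1.5-fold was 0.56 on the log2 scale, just under the 1.5-fold limit, so that limit held their count down. The spread put into the simulation was a fixed setting and was not matched to the single pairs of libraries. Members under the limit were tested by exact permutation, with 3 such tests and no adjustment. Alternatives were quantile normalization, voom on the read numbers, another pseudocount, other limits on low values, 6 libraries per fit, a replicate block, no minimum fold change and each library left out.

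The genes named are the members, the genes of the wider list called in any comparison, a fixed set of receptor partners that includes Il6st, Ntrk3, Fgfr1, Insr and Sort1, the 3 genes most like each called member, and markers where a list is described. Lif, Il6ra, Jak1, Jak2, Tyk2 and Pias3 were added after their values were seen. Gfra1 was not analysed here, and some partners are not reported here. The members and lists were chosen with earlier results of these data known.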

Additional observations from a re-analysis of the deposited data

How the results depend on the processing

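The count of members called stayed at 0 in ONC/Ctrl, 0 in TPEN/ONC and 1 in TPEN/Ctrl under the alternatives run, except without a minimum fold change, which gave 2, 1 and 2. That setting gave 14, 4 and 8 genes of the wider list. The 1 gene of that list called in TPEN/ONC became 2 after quantile normalization or with voom, 0 with a pseudocount of 1, and 0 to 3 with single libraries left out. That gene was Epo, but with only the 6 libraries compared it was Fgfr4, and without TPEN replicate 1 or 3 it was Fgf2. In ONC/Ctrl the 7 called genes became 5 with a pseudocount of 1, which ended the calls of Osmr and Ctf1, and 10 with voom. No pairing of libraries by replicate number was detected. Same-numbered libraries had correlations of their deviations from the group means of -0.062 to 0.027 in 9 pairs, against -0.037 to 0.051 in the 18 other pairs. With 3 libraries per group, a weak pairing could be missed. With the replicate number as a block, 0 genes of the wider list were called in TPEN/ONC, and the limma adjusted p was 0.0913 for Ngfr in TPEN/ONC, 0.0595 for Igf1r in ONC/Ctrl and 0.0690 for Igf1r in TPEN/Ctrl. With only the 6 libraries compared, Igf1r had 0.0742 and 0.0752. The exact permutation p of Igf1 was 0.0393 to 0.325 with single libraries left out. The ratio of Ngfr to Ntrk2 in Ctrl was 25.5 after quantile normalization, against a mean of 32.7. Some log2 fold changes turned, all of them of members that did not pass the adjusted threshold in that comparison. In ONC/Ctrl, Cntf was -0.030 and Lifr -0.038 after quantile normalization, and Lifr was -0.032 with voom. With single libraries left out, Cntf ranged from -0.23 to 0.43, Lifr from -0.039 to 0.046 and Fgf1 from -0.31 to 0.026 in ONC/Ctrl. Over the same fits, Cntf ranged from -0.45 to 0.10 and Igf1r from -0.021 to 0.028 in TPEN/ONC, and Cntf from -0.37 to 0.22 in TPEN/Ctrl. The cause was not tested. Depth limits Bdnf, Cntf and Igf1 most, with as few as 10, 11 and 26 reads in a library.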
